A study of Bos taurus with 12 samples.

Results

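CCL5, XCL1 and CXCL14, 3 secreted chemokines, and CXCR4, a chemokine receptor, were followed in the cell layers of the bovine ovarian follicle. Every probe set that the array platform's annotation assigns to these symbols was taken, which gave 1 probe set for each gene, or 4 of the 24128 probe sets on the array and 4 of 9155 named genes. All 4 passed the filter on low values. The genes were chosen with their values on these arrays known, so their levels and differences are given as a description, without a test.

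The samples were granulosa cells, the inner lining of the follicle wall, and cells of the theca, the vascularised layer around it. Ovaries came from heifers in the follicular stage of the cycle, with no treatment. Each layer was taken from small (up to 5 mm), medium (5 to 10 mm) and large (over 10 mm) antral follicles, with 2 separate pools per layer and size, and RNA of each of the 12 pools was hybridised to 1 Affymetrix bovine array. The sample labels give 20 to 40 follicles per pool, whereas the design text gives 20 to 40 ovaries of 6 to 10 animals, and whether pools shared animals is not given, so the p-values below reflect variation among pools rather than among animals.

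Chemokines are small secreted proteins that bind G-protein-coupled receptors on leukocytes and other cells and guide their migration. Leukocytes, macrophages above all, populate the theca and stroma of the ovary, while the basal lamina keeps the granulosa layer of a healthy antral follicle free of blood vessels. CCL5 is made by activated T and NK cells among others and attracts T cells and monocytes. XCL1, the C-type chemokine lymphotactin, is made by T and NK cells and binds XCR1 on cross-presenting dendritic cells. CXCL14 is a CXC chemokine of epithelia and stroma, and CXCR4 is the receptor of CXCL12 on leukocytes, germ cells and many other cell types.

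Values are deposited signals in the array's own intensity units, scaled by the authors to a common trimmed mean, and differences are in log2(signal + 16) ± standard error of a limma model over all 12 arrays (n = 2 per group). A signal of 22.5, the 40th percentile of all values, served as the threshold below which a probe set was treated as low. Apart from percentile ranks, marker sums and the choice of the brightest probe set of a gene, signals of different probe sets were not compared with each other. The titles, which give the layer, were used for the groups, since 1 free-text label field names theca on all 12 samples. Theca markers (CYP17A1, INSL3, NR2F2, TCF21, APOD and LHCGR) summed to 758 to 1697 on the granulosa arrays and to 17851 to 28382 on the theca arrays. Granulosa markers (9 genes, among them FSHR, AMH and CYP19A1) summed to 20118 to 34454 on the granulosa arrays, against 6096 to 7217 in small, 8663 to 16837 in medium and 16046 to 25210 in large theca, so the ranges of the layers overlapped in large follicles. The members of that list did not run alike. CYP19A1 had 3134 and 1821 in large granulosa, against 4279 on large theca replicate 2. Of the theca arrays, that one had the highest granulosa marker sum (25210) and the lowest theca marker sum (17851). KRT18 had 1425 and 1019 and IHH 571 and 107 in large granulosa, against 56.7 and 2.2 on that theca array. A pair of arrays stood apart in quality: the GAPDH 3'/5' signal ratio was 8.36 on small theca replicate 1 against 0.984 to 1.30 on the others, and the actin ratio was 21.0 on large granulosa replicate 1, 11.2 on small theca replicate 1 and 2.39 to 7.57 elsewhere.

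CCL5 was lowest on both small granulosa arrays and highest on both large granulosa arrays, while its theca signals stayed between 48 and 129. Its signals in granulosa were 2.4 and 2.9 in small, 37.9 and 5.3 in medium, and 557 and 297 in large follicles, against 129 and 84, 70.7 and 48, and 90.3 and 77.2 in theca of the same sizes. The large granulosa arrays lay above all other arrays, and both small granulosa arrays and 1 medium granulosa array lay below the threshold. The order of the groups by mean was large granulosa, small theca, large theca, medium theca, medium granulosa and small granulosa. Small and large theca overlapped. The arrays of the other neighbours in that order did not, but a lack of overlap was common among all probe sets, as given below.

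In large granulosa CCL5 was 4.50 ± 0.44 higher than in small granulosa (22.7-fold) and 3.64 ± 0.44 higher than in medium granulosa (12.5-fold). Arrays of large granulosa lay wholly above those of small granulosa for 21.9% of all tested probe sets and above those of medium granulosa for 20%, so a lack of overlap was common. Because the small granulosa signals were below the threshold, the size of that difference from small granulosa depends on the added constant, being 6.81 with 1 and 2.83 with 64 in place of 16. It was 4.07 without large granulosa replicate 1. Large minus small theca was -0.28 ± 0.44, with overlapping arrays. Medium minus small theca was -0.69 ± 0.44 and large minus medium theca 0.42 ± 0.44. The layers did not overlap in any size, and the sign of their difference turned: granulosa minus theca was -2.69 ± 0.44 in small follicles, -1.14 ± 0.44 in medium and 2.09 ± 0.44 in the large ones. Arrays of the layers lay apart for many probe sets, with granulosa lower for 23.9% in small and 22.5% in medium follicles and higher for 32.7% in large ones. The large minus small difference in granulosa exceeded that in theca by 4.78 ± 0.62. In pooled tissue such as this, more cells of a type and more RNA per cell cannot be told apart.

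CXCR4 was also highest on the large granulosa arrays, but unlike CCL5 it was measured above the threshold on all 12 arrays. Its granulosa signals were 138 and 53.3 in small, 73.4 and 32.4 in medium and 635 and 284 in large follicles, against 56.7 and 236, 142 and 133, and 162 and 197 in theca. Both large granulosa arrays were above all others, and among the remaining 10 arrays the layers overlapped. Large granulosa lay wholly above small granulosa for 21.9% of all tested probe sets, above medium granulosa for 20% and above large theca for 32.7%. The share lying above all other groups at once was not counted. Large exceeded small granulosa by 2.10 ± 0.57 (4.27-fold) and medium granulosa by 2.75 ± 0.57 (6.72-fold). Without large granulosa replicate 1 the large minus small difference was 1.54. In theca large minus small was 0.52 ± 0.57 with overlapping arrays, and it was -0.37 without small theca replicate 1, the array with the raised GAPDH ratio. The large minus small difference in granulosa exceeded that in theca by 1.57 ± 0.80. Granulosa minus theca was -0.39 ± 0.57 in small follicles, -1.22 ± 0.57 in medium and 1.18 ± 0.57 in the large ones. The small-follicle value was 0.19 without small granulosa replicate 2 and 0.51 without small theca replicate 2, so its sign rests on single pools.

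XCL1 had the opposite placement to CXCL14 and was a bright transcript of the granulosa arrays. Its signals in granulosa were 3449 and 4591 in small, 6461 and 1824 in medium and 2694 and 11118 in large follicles, which placed it between the 98.2 and 99.98 percentile of all probe sets on each of these arrays. The theca signals were 43.2 and 496 in small, 1621 and 88.5 in medium and 337 and 2875 in large follicles. Replicates of 1 theca group thus differed 11.5-fold, 18.3-fold and 8.52-fold in small, medium and large follicles, and those of granulosa 1.33-fold, 3.54-fold and 4.13-fold.

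The spread within groups of XCL1, an SD of 1.88 in log2 units, was at the 99.98 percentile of all tested probe sets, whose median was 0.376. That of CXCR4 was 0.745 (96.4 percentile), that of CXCL14 0.586 (88.4 percentile) and that of CCL5 0.506 (78.4 percentile). XCL1 in granulosa exceeded that in theca by 4.52 ± 1.26 for small (23.0-fold), 3.06 ± 1.26 for medium (8.35-fold) and 2.44 ± 1.26 for large follicles (5.43-fold). The arrays of the layers did not overlap in small and medium follicles, where granulosa lay above theca for 25.9% and 30.4% of all tested probe sets, and overlapped in large ones. The small-follicle difference rests on 2 theca pools far apart. It was 2.97 without small theca replicate 1, the array with the raised GAPDH ratio, and 6.08 without small theca replicate 2. When the 6 groups were put in order of their mean log2 value, every neighbouring pair overlapped. The sizes overlapped in each layer too: large minus small was 0.46 ± 1.26 in granulosa, and -0.56 without large granulosa replicate 2, and it was 2.54 ± 1.26 in theca, and 0.98 without small theca replicate 1.

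Other measures moved with XCL1 on the theca arrays. In all 3 sizes the theca pool with more XCL1 also had more FSHR, the FSH receptor, CYP19A1, the aromatase, FST, the activin antagonist follistatin, and CDH2, N-cadherin. These were 4 of the 9 granulosa markers, against 0 of 17 T and NK cell markers and 1 of 6 theca markers (LHCGR, the LH receptor). The share of all tested probe sets was 9.75%. In small follicles the theca pool with less XCL1 was replicate 1, the array with the raised GAPDH ratio. Of the 17 T and NK cell markers, 13 had passed the filter on low values. Counts of 0 and 1 in such short lists cannot be told apart from that share. AMH, INHA, INHBA and IHH were higher in that pool in 2 of the 3 sizes and KRT18 in 1. In granulosa, 0 of the 9 granulosa markers and 7.54% of all tested probe sets were higher in the pool with more XCL1 in all 3 sizes. The part of granulosa RNA in the theca values of XCL1 was not tested. XCL2, the gene next to XCL1 in RefSeq's ARS-UCD2.0 gene table, has no probe set in the annotation used here, and whether the XCL1 probe set also reads XCL2 was not tested.

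CXCL14 was a theca transcript on these arrays. Its granulosa signals were 2.6 and 33.3 in small, 11.5 and 6.4 in medium and 9.5 and 2 in large follicles, with 5 of the 6 arrays below the threshold. The theca signals were 577 and 1121, 573 and 1096, and 289 and 233 in the same sizes. Every granulosa array lay below every theca array, and large theca lay below small and medium theca without overlap. For comparison, granulosa lay below theca without overlap for 23.9% of all tested probe sets in small follicles and for 22.5% in medium and in large ones. Large theca lay below small theca for 23.7% and below medium theca for 22%. The share with every granulosa array below every theca array was not counted.

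Granulosa minus theca of CXCL14 was -4.76 ± 0.48 in small (27.1-fold lower), -5.03 ± 0.48 in medium (32.6-fold lower) and -3.69 ± 0.48 in large follicles (12.9-fold lower). As the granulosa signals were low, the small-follicle value was -6.37 with an added constant of 1 and -3.56 with 64. In theca, large minus small was -1.57 ± 0.48 (2.98-fold lower) and large minus medium -1.55 ± 0.48, while medium minus small was -0.02 ± 0.48. The 3 size differences in granulosa lay between -0.50 and -0.21, with overlapping arrays, and each changed sign without 1 array.

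**Figure D1:**
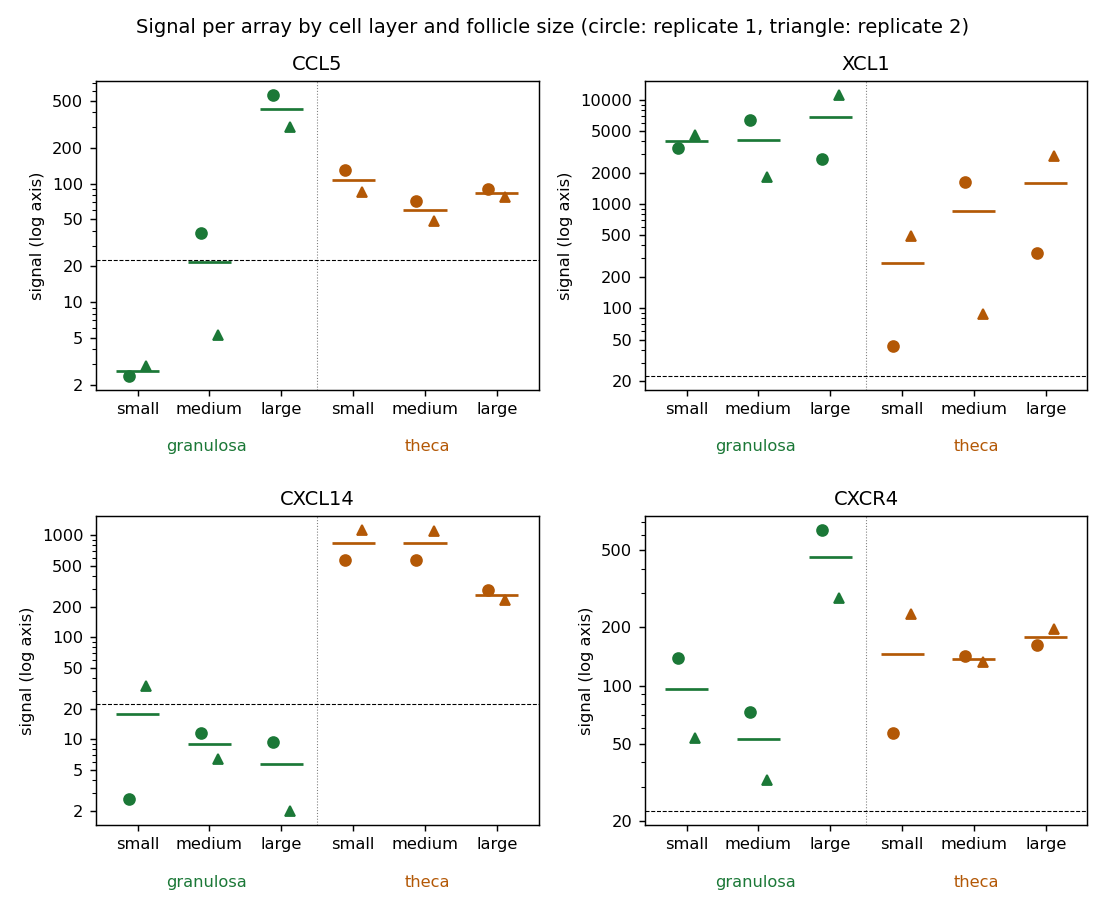
Signal of CCL5, CXCR4, XCL1 and CXCL14 on each of the 12 arrays (log axis, array intensity units), with granulosa left of theca and sizes from small to large. Points are arrays (2 per group), bars are group means and the dashed line marks 22.5; CCL5 and CXCR4 peak in large granulosa, XCL1 is brightest in granulosa with wide gaps between theca replicates, and CXCL14 is low in granulosa, with 5 of 6 arrays under the line.

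Over the 12 arrays CCL5 and CXCR4 ran together and XCL1 and CXCL14 ran opposite. The correlation of log2 values was r = 0.758 between CCL5 and CXCR4, -0.784 between XCL1 and CXCL14 and -0.089 between CCL5 and XCL1. These arrays form 6 groups and are not independent, so the coefficients describe the pattern only.

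Markers of leukocytes had a distribution close to that of CCL5. The summed signal of 17 T and NK cell genes ran over 232 to 325.5 in small, 216 to 386 in medium and 1102 to 3227 in large granulosa, against 554 to 658, 376 to 598 and 473 to 706 in theca. Of these 17 genes, 13 to 15 exceeded 22.5 on the large granulosa arrays and 2 to 6 on the small ones. The mean log2 level of this list correlated with CCL5 (r = 0.90) and CXCR4 (r = 0.79) over the 12 arrays, against r = 0.08 for XCL1 and r = -0.11 for CXCL14, although T and NK cells are the known sources of XCL1.

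Macrophage genes (11, among them CD14, CD68 and the C1Q subunits) were likewise highest in large granulosa, with sums of 4234 to 14931 there against 470 to 518 in small granulosa and 1135 to 3743 over the theca arrays, and correlated with CCL5 at r = 0.91 and CXCR4 at r = 0.76. The 5 markers of blood neutrophils and monocytes summed to 2446 to 2654 in large granulosa and 156 to 166 in small granulosa. Of the red blood cell markers, HBB, a haemoglobin chain, had signals of 579 and 50.4 in large granulosa against 7.7 to 34.7 on the other arrays, whereas HBA had 67.4 and 13.7 in large against 18.7 and 19.6 in small granulosa, and 0 of the 3 tested genes of that list were called (1 at an unadjusted p under 0.05). In large against small granulosa, 10 of 13 tested T and NK cell genes, 11 of 11 macrophage genes and 4 of 5 neutrophil and monocyte genes were called higher by limma at a Benjamini-Hochberg adjusted p under 0.05, whereas 1.82% of all tested probe sets were. These lists were drawn up with earlier results of these data known, so the counts describe the pattern and are no independent test. Without large granulosa replicate 1 the counts were 0 in all 3 lists (11, 11 and 4 genes at an unadjusted p under 0.05), and the same held without small granulosa replicate 1 (again 11, 11 and 4). Without small granulosa replicate 2 they were 1, 4 and 2. The part of infiltrating or contaminating leukocytes in the levels of CCL5 and CXCR4 was not tested.

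**Figure D2:**
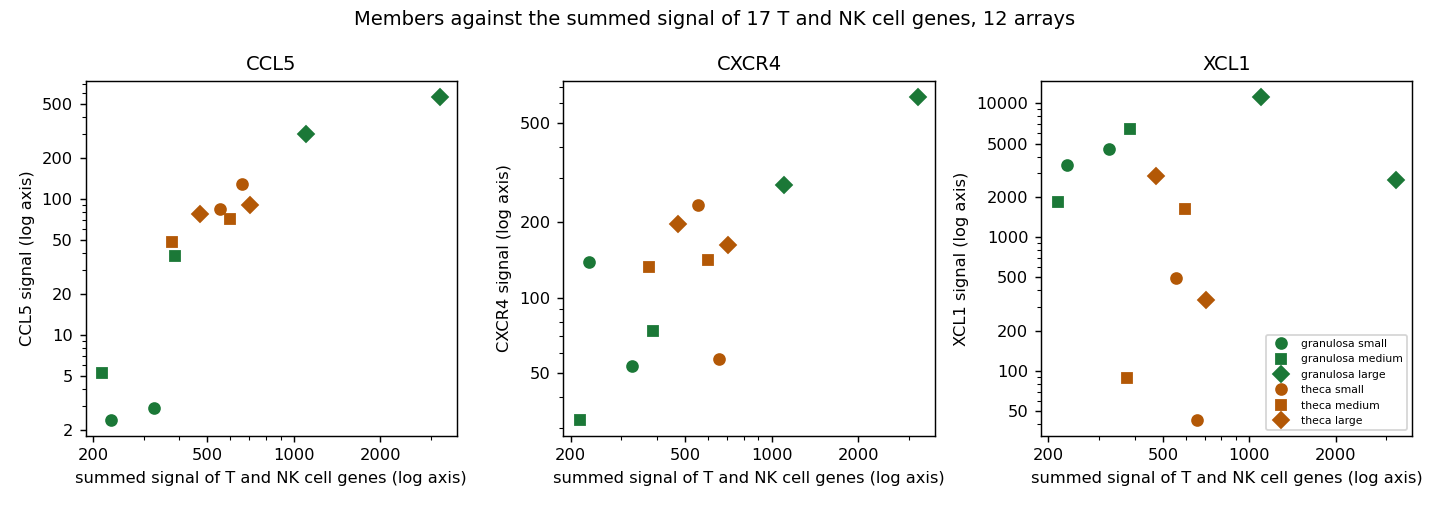
Signal of CCL5, CXCR4 and XCL1 (vertical log axes) against the summed signal of 17 T and NK cell genes (horizontal log axis), 1 point per array, coloured by layer and shaped by follicle size. CCL5 and CXCR4 climb with the sum, and the large granulosa arrays, with sums of 1102 and 3227, stand at the upper right; XCL1 is highest on the array with a sum of 1102 and much lower on the one with a sum of 3227.

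The other lists separated the remaining members. XCL1 correlated with the mean of the granulosa markers at r = 0.85. CXCL14 correlated with the theca markers at r = 0.95, with fibroblast and stroma genes at r = 0.94 and with endothelial genes at r = 0.89. Large theca, the theca group with the lowest CXCL14, also had the lowest endothelial sum of the theca groups, 455 to 838, against 1264 to 1557 in small and 1393 to 1650 in medium theca. Its fibroblast and stroma sum was 22879 to 26527, against 27077 to 31331 in small and 29662 to 30552 in medium theca. The part of a smaller vascular or stromal share in the lower CXCL14 was not tested.

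The genes whose pattern over the 12 arrays was most like that of each member were found among 7892 genes by Pearson's r of log2 values. For CCL5 these were UBD (r = 0.977), a ubiquitin-like protein, RAC2 (r = 0.961), HCLS1 (r = 0.959), CTSH (r = 0.955) and BCL2A1 (r = 0.952). For CXCR4 the likeness was looser: LOC512672 (r = 0.895), ARPC5 (r = 0.886), PLA2R1 (r = 0.870), RP2 (r = 0.867) and PTPRC (r = 0.859), the leukocyte antigen CD45. For XCL1 they were AMACR and BMP2 (both r = 0.966), LOC514170 (r = 0.963), MAPK13 (r = 0.958) and PLOD2 (r = 0.954). These 5 also followed XCL1 within groups, with a correlation of deviations from the group means of 0.905 to 0.967. They were picked over the same arrays, on which XCL1 varied widely within groups, so these values are no added support. For CXCL14 they were HPGD (r = 0.979), EGFLAM (r = 0.978), SULF2 (r = 0.977), C7 (r = 0.976) and EDNRA (r = 0.972), whose deviations within groups followed those of CXCL14 less closely, at 0.090 to 0.591. CXCL14 also had a smaller spread within groups than XCL1 (SD 0.586 against 1.88), so the contrast between these 2 sets of neighbours is a description only.

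Among the ligands and partners of the CXCR4 axis, CXCL12 was lower on the granulosa than on the theca arrays of each size. CXCL12, the ligand of CXCR4, had granulosa signals of 38 and 35.3 in small, 83.2 and 60.6 in medium and 37.9 and 192 in large follicles, against 162 and 274, 485 and 391, and 296 and 277 in theca. Granulosa was lower than theca by the limma test in small (-2.11 ± 0.49, adjusted p = 0.0179) and medium follicles (-2.37 ± 0.49, adjusted p = 0.0103). In large follicles the difference did not pass the test. The granulosa signals there were far apart, but both lay below both theca signals, as for 22.5% of all tested probe sets. The change of this layer difference from small to large follicles was not called by limma. The highest CXCR4 and the highest CXCL12 thus lay in different layers.

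ACKR3, the scavenging receptor that also binds CXCL12, had granulosa signals of 174 and 77.6 in small, 115 and 27.1 in medium and 46.2 and 99.3 in large follicles, against 118 and 195, 414 and 252, and 223 and 124 in theca. By the limma test it was lower in granulosa than in theca in medium follicles (-2.18 ± 0.54, adjusted p = 0.0286), and whether that difference is particular to medium follicles was not tested. MIF, a cytokine that also binds CXCR4, had signals of 590 and 1022 in small, 565 and 890 in medium and 1487 and 1488 in large granulosa, against 461 and 353, 633 and 607, and 657 and 593 in theca. Its large minus small difference in granulosa, 0.92, did not pass the test (adjusted p = 0.224). CCR3, a receptor of CCL5, was too low to be tested, and CCR1, XCR1, the receptor of XCL1, and CD74, the surface partner of MIF, have no probe set in the annotation used here.

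**Figure D3:**
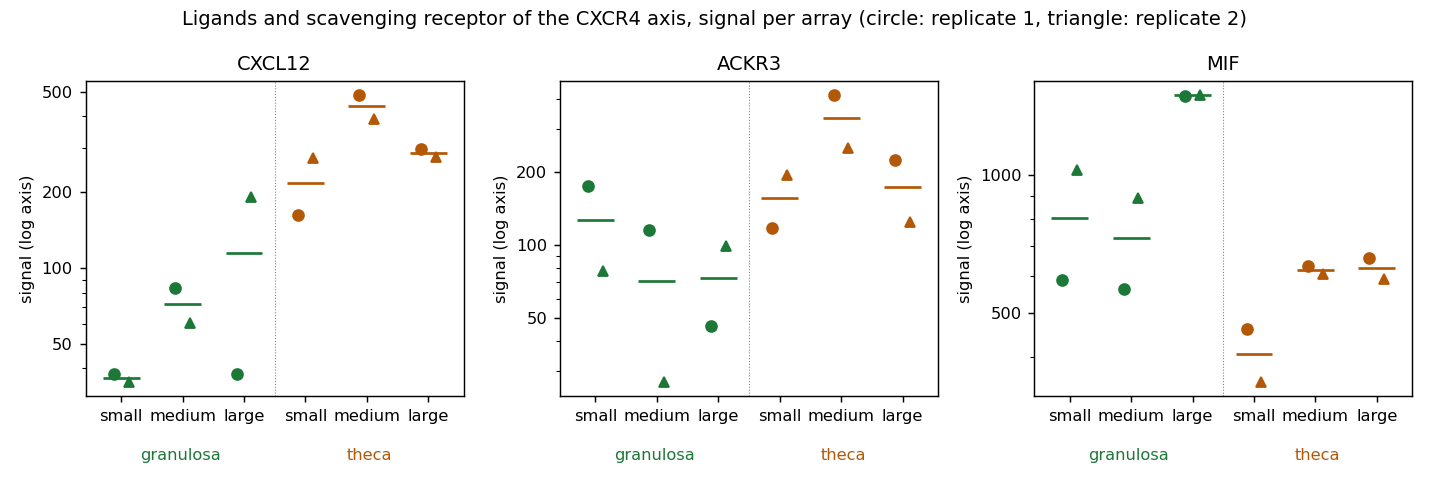
Signals (log axes, array intensity units) of CXCL12, ACKR3 and MIF, the partners of CXCR4, on the 12 arrays, granulosa left of theca and sizes from small to large; points are arrays and bars are group means. MIF is highest in large granulosa (1487 and 1488), whereas CXCL12 is highest in medium theca (485 and 391).

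The rest of the chemokine system was taken from lists of 36 ligands, 22 receptors and 28 signalling proteins and regulators. These lists too were drawn up with earlier results of these data known, so their counts describe the pattern. Of these 86 genes, 54 had a probe set and 40 passed the filter: 17 ligands, 5 receptors and 18 signalling genes. In large against small granulosa, 13 of the 40 (32.5%) were called higher and 0 lower, against 1.82% higher and 0.4% lower of all tested probe sets. The median difference of the 40 was 0.88, against 0.04 over all tested probe sets. CXCL8 and FGR passed the filter through large granulosa alone and so had to differ there. They are given by their signals only, and 11 calls stand without them.

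Of the 17 tested ligands 7 were called higher in large granulosa, CXCL8 among them. CXCL16, a membrane-bound ligand, had signals of 1476 and 632 in large against 98.8 and 118 in small granulosa (2.98 ± 0.46, adjusted p = 0.0060). Its receptor CXCR6, found on T cells, had 217 and 98.4 against 11.8 and 15.7 (2.46 ± 0.47, adjusted p = 0.0149) and was the 1 of 5 tested receptors to rise. The ligand and its receptor were thus both higher, without overlap of arrays.

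CCL2, the main monocyte attractant, rose by 2.87 ± 0.57 (adjusted p = 0.0170), CCL8, a related ligand, by 2.35 ± 0.33 (adjusted p = 0.0042), and CCL3 and CCL4, the macrophage inflammatory proteins, by 2.05 ± 0.45 (adjusted p = 0.0285) and 2.86 ± 0.51 (adjusted p = 0.0108). The neutrophil attractant CXCL5 also rose (1.70 ± 0.37, adjusted p = 0.0305). CXCL8, of the same kind, had signals of 36.4 and 25.4 in large against 0.7 and 1 in small granulosa. Of the 18 signalling genes 5 were called, with RGS1, a brake on chemokine receptor signalling in lymphocytes, at 3.52 ± 0.65 (adjusted p = 0.0118). The others were RAC2 (3.11 ± 0.47, adjusted p = 0.0057) and VAV1 (2.85 ± 0.53, adjusted p = 0.0129), a blood-cell GTPase and exchange factor, the kinase LYN (2.04 ± 0.41, adjusted p = 0.0179) and the kinase FGR, with 57.2 and 40.5 in large against 1.4 and 1.5 in small granulosa. These genes moved with the leukocyte marker sums given above, whose part in the differences was not tested.

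The large granulosa calls depend on single pools. By the same limma test, 0 of the 40 genes were called without large granulosa replicate 1 or without small granulosa replicate 1 (16 at an unadjusted p under 0.05 in either case), 2 were called without small granulosa replicate 2 and 15 without large granulosa replicate 2. Without both arrays that stood apart in quality 2 were called. Against medium granulosa, 5 of 40 were called higher in large granulosa (CCL8, CXCL16, CXCR6, RAC2 and FGR, or 4 without FGR), against 0.65% of all tested probe sets. There were 0 calls without large granulosa replicate 1 or medium granulosa replicate 2 (14 and 15 at an unadjusted p under 0.05), and without large granulosa replicate 2 there were 12.

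In theca the chemokine system showed no called size difference. In large against small theca 0 of 40 were called by limma against 0.0348% of all tested probe sets, with 3 of 40 against 10.2% at an unadjusted p under 0.05, and without small theca replicate 2 there were 2. By limma 0 were called for medium against small theca (0.0116% of all tested probe sets), with 3 of 40 against 6.2% at an unadjusted p under 0.05. For large against medium theca 0 were called (0% of all), with 1 of 40 against 3.13% unadjusted, and for medium against small granulosa 0 (0.0058% of all), with 1 of 40 against 3.37% unadjusted. CCL14, a ligand of CCR1 that circulates in plasma, had 76.9 and 75 in large against 404 and 316 in small theca, without overlap, but its difference of -2.02 was not called (adjusted p = 0.131). The difference between the layers in the large minus small comparison was called by limma for 0 of the 40 genes (0.0116% of all tested probe sets), with 17 of 40 against 10.6% at an unadjusted p under 0.05. It was called for 6 without large granulosa replicate 2 and for 4 without small theca replicate 2. A larger size effect in granulosa than in theca was therefore not shown by this test.

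Between the layers, the called chemokine genes were lower in granulosa in small and medium follicles and higher there in large ones; the test of this change from small to large is the layer difference just given, with 0 calls. In small follicles 8 of 40 were lower in granulosa and 0 higher, against 5.08% of all tested probe sets lower and 4.06% higher. CCL14 had 11.6 and 24.1 in granulosa against 404 and 316 in theca (-3.49 ± 0.40, adjusted p = 0.00016), and CCL21, the lymphatic ligand of CCR7, had 0.7 and 4.9 against 89.4 and 130 (-2.73 ± 0.41, adjusted p = 0.0011). Over the alternative runs the difference was between -4.33 and -2.37 for CCL14 and between -5.10 and -1.37 for CCL21. For CXCL11, also called here, it was between -3.47 and -0.48. GRO1, a neutrophil attractant of the CXCL1 group, was lower by 2.76 ± 0.50 (adjusted p = 0.0040), but was read by its brightest of 4 probe sets and the other 3 were low on every array. CXCL12, CCL8, GRK5, a receptor kinase, CXCL5 and CXCL11 were the other 5.

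In medium follicles 5 of 40 were lower in granulosa, and 0 higher, against 4.21% of all tested probe sets lower and 1.79% higher. They were CCL14 (-4.18 ± 0.40, adjusted p = 3.4e-05), CCL21 (-2.21 ± 0.41, adjusted p = 0.0046), CXCL10 (-2.23 ± 0.59, adjusted p = 0.0405), an interferon-induced ligand of CXCR3, CXCL12 and ACKR3. In large follicles 0 were lower and 6 higher in granulosa, against 2.39% of all tested probe sets lower and 2.02% higher. CCL3 was higher by 2.33 ± 0.45 (adjusted p = 0.0105) and CXCR6 by 2.11 ± 0.47 (adjusted p = 0.0241). ELMO1, a partner of the exchange factor DOCK2, and RAC2 were also called. PF4, a platelet chemokine, with 111 and 49.3 in granulosa against 0.7 and 8.8 in theca, and FGR were the other 2. Both passed the filter through large granulosa alone and so had to differ, and 4 calls stand without them.

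The layer counts also varied with single pools. In small follicles the count was 2 without small granulosa replicate 2, 4 without small granulosa replicate 1 or small theca replicate 1, and 11 without either large granulosa array. In medium follicles it was 1 without medium theca replicate 1 and 2 without medium theca replicate 2 or medium granulosa replicate 2. In large follicles it was 0 without large granulosa replicate 1 (12 at an unadjusted p under 0.05), 1 without large theca replicate 2, 3 without large theca replicate 1 and 11 without large granulosa replicate 2.

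**Figure D4:**
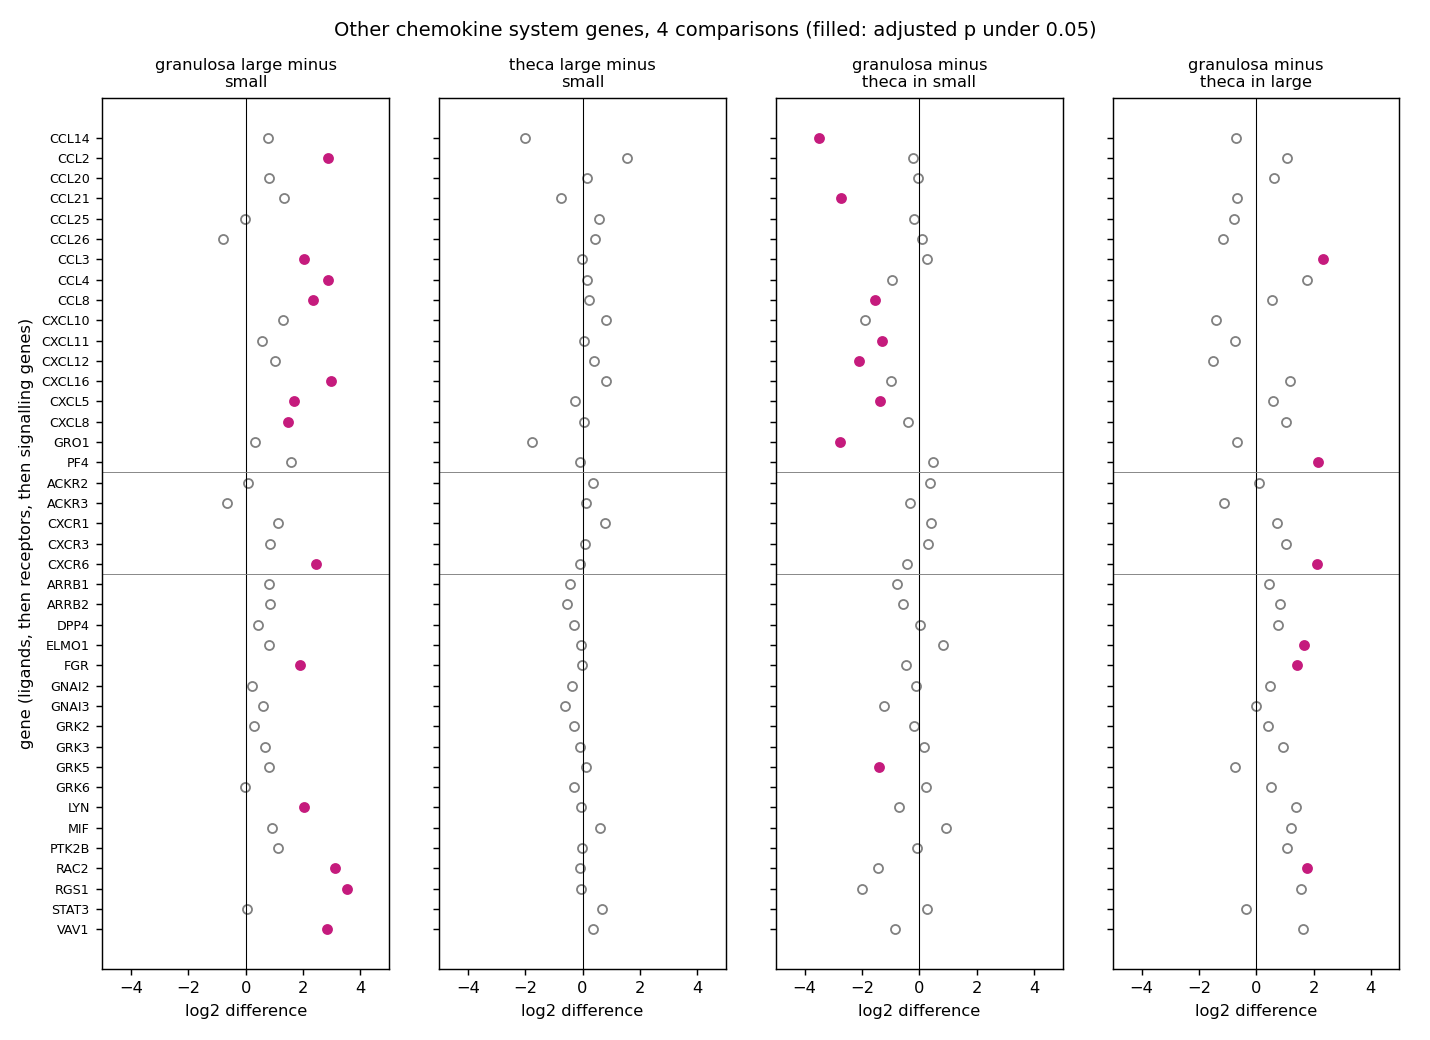
Differences in log2(signal + 16) of the 40 tested chemokine system genes in 4 comparisons: large minus small granulosa, large minus small theca, and granulosa minus theca in small and then in large follicles. Filled points passed the limma test at an adjusted p under 0.05 (13, 0, 8 and 6 genes), open points did not; called genes lie to the right in large granulosa and to the left in the small-follicle layer comparison.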

How the data were processed

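The deposited values were linear signal intensities of each probe set, scaled by the authors to a 2% trimmed mean of 125.03 to 125.04 on every array, as the values show. The software used is not given in the sources used here. Genes were named from the platform annotation. Signals were turned into log2(signal + 16), so folds of dim genes are understated. A limma model (3.58.1, R 4.3.3) with 6 group means was fitted over 17236 probe sets whose mean exceeded that of a signal of 22.5 in at least 1 group, with 10 contrasts and Benjamini-Hochberg adjustment within each. The brightest probe set stood for a gene. With 2 arrays a group, p = 0.333 is the smallest an exact permutation test (two-sided) allows. The number of arrays limits precision. The script was tested on simulated data.

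The members and gene lists were chosen with earlier results of these data known. Named genes were the members, their receptors, ligands and partners, called genes of the chemokine lists (up to 12 per contrast) and the 5 genes most correlated with each member. GRO1, CCL14 in theca sizes, CXCL8, HBB and HBA were described further after their values had been seen. Alternatives changed the constant, filter, normalization, variance trend, replicate block, groups fitted, probe set rule and each array; leaving out both arrays of doubtful quality was added after seeing the data.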

Additional observations from a re-analysis of the deposited data

How the results depend on the processing

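None of the called differences changed sign under any alternative run, but 12 of the 36 member differences did when arrays were left out, among them CXCR4 between layers in small follicles, XCL1 between sizes and CXCL14 between granulosa sizes. Counts of called chemokine system genes that moved by over 1.5 times were as follows. For large against small granulosa (13) the count was 4 with a constant of 64, 2 without both arrays of doubtful quality, and 0 to 15 with 1 array left out. For large against medium granulosa (5) it was 0 with a constant of 1, 0 with 64, 3 without a filter, 9 with the replicate block, 0 without both arrays and 0 to 12 with 1 array left out. Between layers in small follicles (8) it was 5 with a constant of 64, 5 in a fit on the compared groups, 5 without both arrays and 2 to 11 with 1 left out. In medium follicles (5) it was 2 with a constant of 1, 3 without a filter and 1 to 6 with 1 left out. In large follicles (6) it was 2 with a constant of 1, 2 in a fit on the compared groups, 1 without both arrays and 0 to 11 with 1 left out. Large against small theca (0) gave 0 to 2, and the layer difference in the size comparison (0) gave 0 to 6.

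Of the members, large minus small granulosa CCL5 was 6.81 with a constant of 1, 2.83 with 64 and 4.07 to 4.94 with 1 array left out, and that of CXCR4 was 1.52 to 2.67. In small follicles granulosa minus theca of XCL1 was 2.97 to 6.08, and that of CXCL14 was -6.37 with a constant of 1, -3.56 with 64 and -5.49 to -4.57 with 1 left out. Deviations of same-numbered replicates correlated at -0.33 to 0.40 over 15 pairs of groups, over 0.1 in 6, so the numbers were not taken as pairs; with the replicate block the counts were 13, 9, 9, 5 and 7 in the order above. Low signals limit the size of differences for CCL5 and CXCL14 in granulosa.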

Other observations

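Of the listed chemokine system genes with a probe set, 14 did not pass the filter on low values. They were the ligands CCL11, CCL19, CCL22, CCL28, CXCL2, CXCL3, CXCL13 and CXCL17, the receptors CCR3, CCR4, CCR9 and CXCR5 and the scavenging receptors ACKR1 and ACKR4. Their highest signals on any array ran from 10.7 (ACKR4) to 44.5 (CCR3, on large granulosa replicate 1).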
